A study of Mus musculus with 4 samples.

Results

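The cap mesenchyme markers examined here were 9 genes, Cited1, Cited2, Meox1, Meox2, Uncx, Crym, Dpf3, Traf1 and Spock2, chosen because they are known to mark the cells that surround the tips of the ureteric bud. The platform annotation assigned 14 probe sets to one of these genes alone, out of 45101 probe sets on the array, of which 34958 named a single gene (18194 genes in all). The mutant arrays, 2 in number, held RNA of kidneys described as Wnt4 null mutant (allele Wnt4tm1Amc) at stage E14.5 (Theiler stage 22), pooled from 12 kidneys each and given as strain 129. The wild-type arrays, also 2, held RNA of kidneys of the same stage, pooled from 2 kidneys each and given as strain CD-1. The protocol text, shared by all arrays, describes matings of CD-1 mice, which leaves it unsettled whether strain differed between the groups. Genotype, pool size and the strain field changed together, so their parts in a difference cannot be told apart. Values were signal intensities on a linear scale, compared as log2(signal + 16), mutant minus wild type.

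The cap mesenchyme is the condensed population of nephron progenitors. Its cells renew themselves or, on a Wnt signal from the ureteric bud, switch on Wnt4, leave the cap and become an epithelial renal vesicle. Six2, a homeobox transcription factor, is the best known marker of the self-renewing cells, and Cited1 marks the least induced of them. Kidneys without Wnt4 form condensed mesenchyme but largely fail at the step to the vesicle.

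Wnt4 served as a check of the labels. At its brighter probe set the signal was 406 and 272 on the mutant arrays, against 1885 and 1769.9 on the wild-type arrays (log2 difference -2.40, limma adjusted p = 0.000196). Six2 had a signal of 3235 and 2670.2 on the mutant arrays, against 3759.5 and 2896 on the wild-type arrays, so the groups overlapped. Its log2 difference was -0.17 ± 0.14 (SE), with a 95% interval of -0.49 to 0.16 and a limma adjusted p of 0.524. The interval allows both a small fall and a small rise. In whole kidneys, fewer cells of a type and less RNA per cell cannot be told apart.

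The 9 markers did not move as one group. Of the 14 probe sets, 13 passed the filter on low values, and 6 of these 13 passed the limma test at an adjusted p of 0.05, against 10.8% of all 27022 probe sets tested. Lower in the mutant were 4 of the 13, against 5.39% of all, and higher were 2, against 5.41% of all. Per gene, taking the tested probe set with the highest mean, Uncx, Cited1 and Cited2 fell, Crym rose, Traf1 passed as higher, and Meox1, Meox2, Dpf3 and Spock2 did not pass. That is 5 of 9 genes, against 12.5% of 13432 genes tested, with 3 lower against 5.82% and 2 higher against 6.7%. Members were chosen with earlier results of these data known, so the shares given here describe them and are no test of an excess. Traf1 entered the test only through the arrays where it was high, its wild-type mean lying below a signal of 94.2, the lowest 4-array mean that the filter kept, so its call has little weight. Where both group means were above 94.2, 4 of 8 member genes passed, against 12% of 12949 genes, and 5 of 12 member probe sets, against 10.4% of 25622. The median log2 difference of the 9 genes was -0.15, and that of all genes tested was 0.00027. The signals of the 2 groups did not overlap at 6 of the 13 probe sets, and at 54.1% of all probe sets tested.

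**Figure D1:**
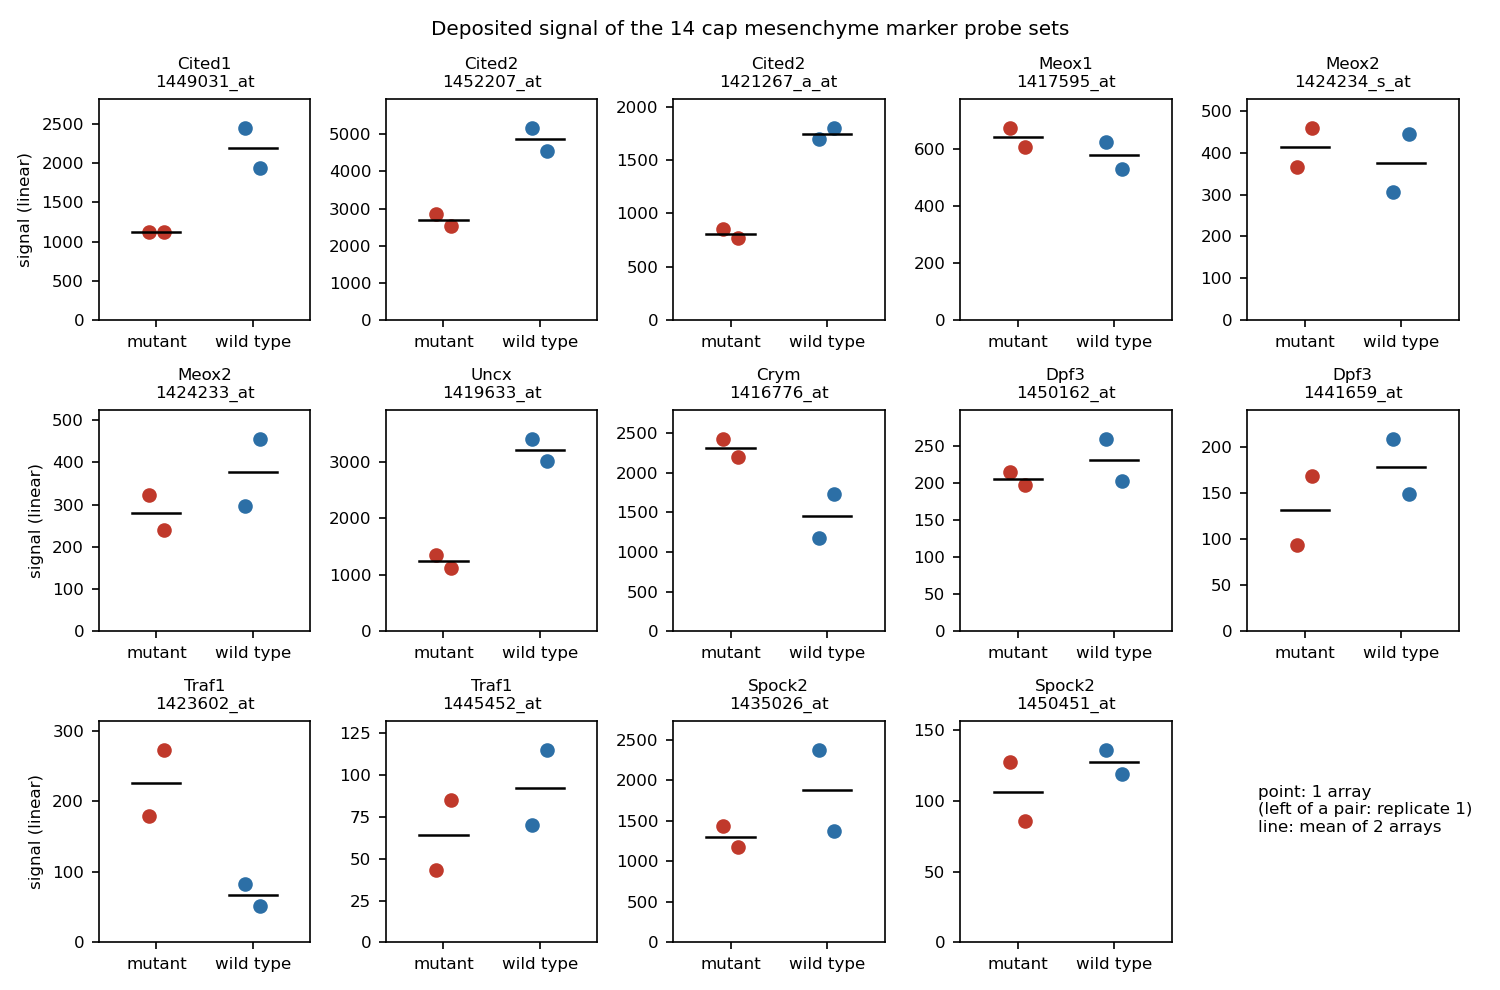
Deposited signal (y axis, linear, from 0) of the 14 probe sets of the 9 cap mesenchyme markers in mutant (red, left) and wild-type kidneys (blue, right). Each point is 1 array and each line the mean of 2. The Uncx, Cited1 and Cited2 mutant arrays all lie below the wild-type arrays, those of Crym and of Traf1 at 1423602_at lie above, and at the other 8 probe sets the groups overlap.

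Uncx, a paired-type homeobox transcription factor best known from the posterior part of each somite, had the lowest log2 difference of the 13 tested probe sets. Its signal was 1358 and 1124 on the mutant arrays, against 3405 and 3012 on the wild-type arrays. Both mutant arrays lay far below both wild-type arrays. The means were 1241 ± 165 in mutant and 3208 ± 278 in wild-type kidneys (SD, n = 2 each), a 2.57-fold lower level. The log2 difference was -1.36 ± 0.12 (SE), with a 95% interval of -1.63 to -1.09 and a limma adjusted p of 0.000376. It was the one member whose call was kept under every alternative tried, with adjusted p of at most 0.0313.

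The CITED proteins carry no DNA-binding domain of their own and act by binding the histone acetyltransferases CBP and p300. Cited1 had a signal of 1118 and 1119.7 on the mutant arrays, against 2446 and 1931 on the wild-type arrays. The mutant arrays were almost equal and lay well below the wild-type pair. The level was 1.93-fold lower, a log2 difference of -0.95 ± 0.12 (SE), with an interval of -1.23 to -0.66 and a limma adjusted p of 0.00280. Cited1 no longer passed when the fit left out the trend of spread with intensity (adjusted p = 0.0621).

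Cited2, which competes with HIF-1 for CBP and p300 and is needed for formation of the adrenal gland, was lower at both of its probe sets. At the brighter one, 1452207_at, the signal was 2848 and 2539 on the mutant arrays, against 5171 and 4559 on the wild-type arrays. At the dimmer one, 1421267_a_at, it was 854 and 766 on the mutant arrays, against 1692 and 1801 on the wild-type arrays. Neither probe set showed an overlap between groups. The folds were 1.80 and 2.14, both lower in the mutant, with log2 differences of -0.85 ± 0.10 and -1.09 ± 0.11 (SE) and limma adjusted p of 0.00163 and 0.000695. Leaving out that trend ended the first of these calls (adjusted p = 0.0594). The intervals of Cited1 and of both Cited2 probe sets overlap one another, and whether the 2 genes fell by unequal amounts was not tested.

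To set the members against Six2 on the same array, the fit was repeated with the log2 value of Six2 subtracted, a choice made after the values were seen. This moved the median log2 difference of all tested probe sets to 0.16, from which the values that follow should be read, and the spread of Six2 enters every one of them. Uncx was then at -1.20 (limma adjusted p = 0.00316), Cited1 at -0.78 (adjusted p = 0.169) and the Cited2 probe sets at -0.68 and -0.93 (adjusted p = 0.284 and 0.0623). Crym was at 0.85 (adjusted p = 0.0959). Traf1, at 1.71 (adjusted p = 0.0154), is subject to the limit on its wild-type level. So Uncx kept its call relative to Six2, and Cited1, Cited2 and Crym did not. Over all tested probe sets 3.40% passed in this fit, against 10.8% without the subtraction. The fit tests against 0 and not against the moved median, so a lost call does not show that a gene followed Six2.

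The annotated promoters of the 3 genes that fell together are shown because they are the sequences at which shared regulation would be looked for. Each is a RefSeq window of assembly GRCm38.p6, 250 bases before to 50 after an annotated start, and capitals mark matches, on either strand, to the TATA box letters TATAAA, to the letters CCAAT of the box of that name, and to both forms of the TCF/LEF core, written CTTTGA when it ends in A and CTTTGT when it ends in T. The Cited1 window, chrX:102252132-102252431 on the minus strand, is that of the outermost of 3 annotated starts. The Cited2 window is chr10:17722978-17723277 and the Uncx window chr5:139543648-139543947, both on the plus strand.
Cited1: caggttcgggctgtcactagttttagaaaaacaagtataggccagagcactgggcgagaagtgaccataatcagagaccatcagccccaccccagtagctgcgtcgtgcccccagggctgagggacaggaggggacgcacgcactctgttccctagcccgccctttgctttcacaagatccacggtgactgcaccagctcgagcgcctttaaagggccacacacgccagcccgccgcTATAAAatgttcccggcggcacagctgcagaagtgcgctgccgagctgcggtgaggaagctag
Cited2: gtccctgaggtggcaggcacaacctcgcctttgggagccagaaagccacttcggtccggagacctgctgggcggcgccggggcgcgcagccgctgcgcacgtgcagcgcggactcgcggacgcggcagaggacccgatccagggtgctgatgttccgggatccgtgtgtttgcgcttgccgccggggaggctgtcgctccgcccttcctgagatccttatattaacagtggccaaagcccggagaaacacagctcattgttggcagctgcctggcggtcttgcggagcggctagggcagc
Uncx: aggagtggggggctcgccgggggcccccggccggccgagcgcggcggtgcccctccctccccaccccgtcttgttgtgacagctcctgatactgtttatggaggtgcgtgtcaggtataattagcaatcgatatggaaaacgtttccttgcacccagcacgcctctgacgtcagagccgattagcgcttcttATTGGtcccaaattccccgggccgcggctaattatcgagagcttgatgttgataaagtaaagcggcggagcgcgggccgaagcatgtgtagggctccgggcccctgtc
The Cited1 window shown held 1 TATAAA match, the Uncx window held 1 CCAAT match on the opposite strand, and the Cited2 window held none of these letters. No TCF/LEF core was in any of the 3. The second Cited1 window, not shown, held a TATAAA and a CCAAT match, the CCAAT on the opposite strand as in Uncx. Of the 32851 windows in the table, 13.6% held the TATA box letters, 37.4% held a CCAAT box and 31.2% held a TCF/LEF core in either form. Windows were listed for 7 of the 9 members, 9 windows in all, and the TCF/LEF core was in 2 of these, the windows of Dpf3 and Spock2. No motif was in windows of all 3 genes that fell, which says nothing about any factor.

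Traf1, an adaptor of TNF receptor family signalling, had a brighter signal in the mutant at the tested probe set, 1423602_at. The signal was 179.8 and 273 on the mutant arrays, against 82.2 and 51.5 on the wild-type arrays. The groups did not overlap, but every value was low, and the wild-type mean of 66.9 ± 21.7 (SD, n = 2) was under 94.2. The probe set was thus tested only because the mutant signal was high, and no fold is given. The log2 difference was 1.55 ± 0.34 (SE). It passed among the filtered probe sets (limma adjusted p = 0.0244) and did not pass without the filter (adjusted p = 0.0748), without the intensity trend (0.0717) and without mutant replicate 2 (0.125). The second Traf1 probe set, 1445452_at, did not pass the filter. Its signal was 43.4 and 85.2 on the mutant arrays, against 70.1 and 115 on the wild-type arrays, so the groups overlapped and the log2 difference, -0.45, had the other sign. Of 20 tested genes of the TRAF and NF-kB list, 0 passed limma in either direction, with a median log2 difference of -0.04. Those include Traf2, Traf4, Traf5, Traf6 and Traf7.

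Crym encodes mu-crystallin, a cytosolic protein that binds thyroid hormone. Its signal was 2426 and 2195 on the mutant arrays, against 1175 and 1733 on the wild-type arrays. The groups did not overlap, though wild-type replicate 2 came near the mutant arrays. The level was 1.61-fold higher in the mutant, a log2 difference of 0.69 ± 0.17 (SE), with an interval of 0.30 to 1.07 and a limma adjusted p of 0.0367. It was the call nearest the threshold among the members, and was lost without mutant replicate 1 (adjusted p = 0.112), without mutant replicate 2 (0.0587), without a filter (0.0872), without the intensity trend (0.181) and with a robust fit (0.0532). Without wild-type replicate 1 the log2 difference was 0.41, and without wild-type replicate 2 it was 0.96. Of 8 tested thyroid hormone genes, 1 was higher, the receptor gene Thra (1.65-fold, limma adjusted p = 0.00308), and 0 were lower, with a median log2 difference of 0.04. Thra no longer passed relative to Six2 (adjusted p = 0.0698), nor in a fit with no trend (0.0715).

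**Figure D2:**
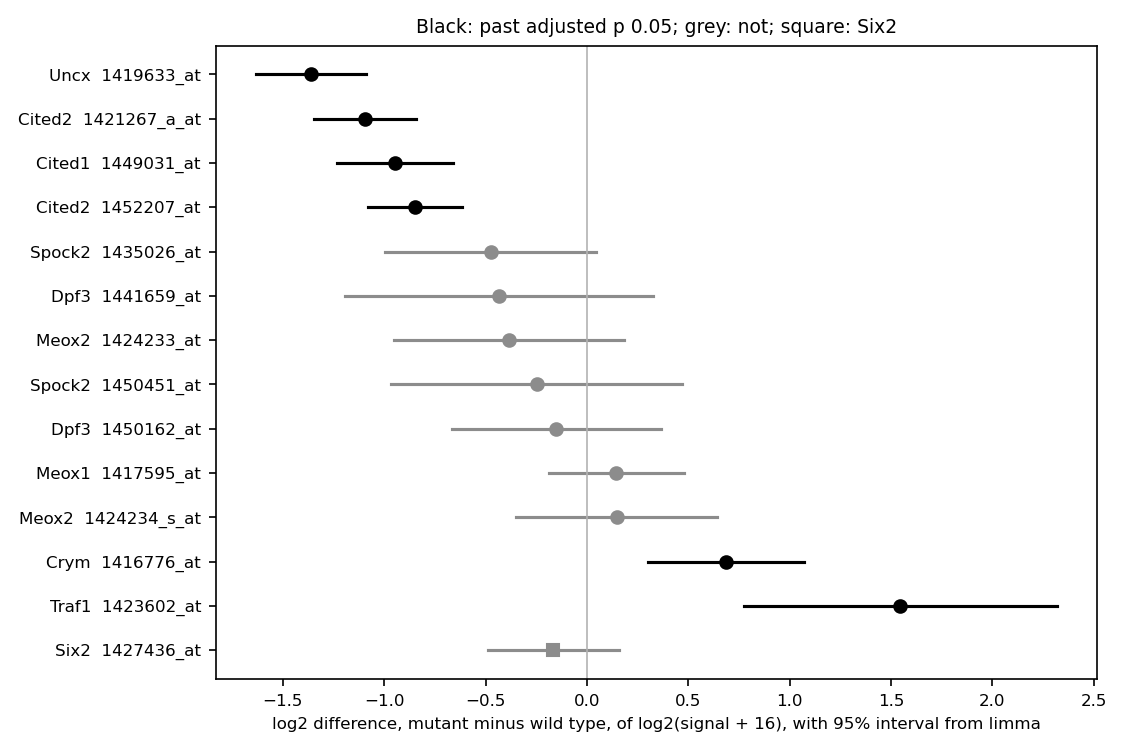
Log2 difference, mutant minus wild type, with its 95% interval from limma (x axis) for the 13 tested probe sets, ordered by value, and for Six2 (square). Black marks a limma adjusted p below 0.05. The 4 probe sets of Uncx, Cited1 and Cited2 lie from -1.36 to -0.85, Crym and Traf1 lie at 0.69 and 1.55, and the intervals of the other 7 and of Six2 include 0.

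The remaining members gave intervals that include 0, which bounds their change and does not show that it is absent. Meox1 and Meox2 are homeobox transcription factors of the somites and of developing muscle. Meox1 had a signal of 673 and 605 on the mutant arrays, against 624 and 529.9 on the wild-type arrays. The groups overlapped, and the interval of its log2 difference, -0.19 to 0.48, was the narrowest of these 4 genes (limma adjusted p = 0.593). Meox2 had a signal of 366 and 459 on the mutant arrays, against 306 and 445 on the wild-type arrays, at 1424234_s_at. At 1424233_at it was 324 and 239 on the mutant arrays, against 297 and 456 on the wild-type arrays. The groups overlapped at both Meox2 probe sets, and the log2 differences, 0.15 and -0.39, had opposite signs (limma adjusted p = 0.736 and 0.385). When 1 array was left out, the sign at 1424234_s_at was not settled, with log2 differences from -0.11 to 0.41.

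Spock2 encodes testican-2, a proteoglycan of the extracellular matrix. At 1435026_at its signal was 1433 and 1173 on the mutant arrays, against 2378 and 1376 on the wild-type arrays. Wild-type replicate 2 fell between the mutant arrays, while wild-type replicate 1 stood well above all others. The log2 difference was -0.48 ± 0.23 (SE), with an interval of -0.995 to 0.044 and a limma adjusted p of 0.233. Which wild-type array was used decided the value, which was -0.08 without wild-type replicate 1 (adjusted p = 0.778) and -0.87 without wild-type replicate 2 (adjusted p = 0.000515). In each of these fits the spread came from the mutant arrays, and the lone wild-type array was assumed to vary like them. At the dimmer probe set, 1450451_at, the signal was 127 and 85.7 on the mutant arrays, against 136 and 119 on the wild-type arrays (log2 difference -0.25, adjusted p = 0.686). Of 5 tested genes of the SPOCK and SPARC family list, Smoc2 (2.80-fold) and Sparcl1 (2.36-fold) were higher, 0 were lower, and the median log2 difference was 0.23. Smoc2 is also in the stroma list.

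Dpf3 is a double PHD finger protein of the BAF chromatin remodelling complex that reads modified histone tails. At 1450162_at its signal was 214 and 196 on the mutant arrays, against 259 and 203 on the wild-type arrays. At 1441659_at it was 94.1 and 169 on the mutant arrays, against 209 and 149 on the wild-type arrays. The groups overlapped at both, with log2 differences of -0.15 and -0.43 and limma adjusted p of 0.740 and 0.471. Of the 24 other BAF subunits tested, the ATPase gene Smarca2 was higher (1.84-fold, limma adjusted p = 0.00289, lost without the intensity trend at 0.0574). The other 23 did not pass, among them the Dpf3 paralogues Dpf1 and Dpf2, and the median log2 difference was 0.10.

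Other nephron progenitor genes were mixed too. Of 28 tested genes of that list besides the members, 3 were lower and 6 higher in the mutant, 19 did not pass, and the median log2 difference was 0.20. Rspo3, a secreted enhancer of Wnt signalling, had a signal of 1545 and 1356 on the mutant arrays, against 375 and 354 on the wild-type arrays (3.85-fold higher, limma adjusted p = 0.000102). Clec18a had a signal of 152 and 88.7 on the mutant arrays, against 1051 and 939.8 on the wild-type arrays (7.62-fold lower, adjusted p = 0.000283). Osr1, a zinc finger factor of the earliest kidney mesenchyme, had a signal of 713 and 759.5 on the mutant arrays, against 444 and 379.6 on the wild-type arrays. It was 1.76-fold higher (adjusted p = 0.0102), a call lost without mutant replicate 2 (0.0637), without the intensity trend (0.0621) and relative to Six2 (0.0735). The summed signal of 6 defining progenitor markers, Six2, Osr1, Eya1, Sall1, Itga8 and Gdnf, was 11513 and 11771 on the mutant arrays, against 12819 and 12812 on the wild-type arrays. The log2 differences of these markers had both signs, with Osr1, Eya1 and Gdnf above 0 and Six2, Sall1 and Itga8 below 0. Only Osr1 and Itga8 (1.35-fold lower, limma adjusted p = 0.0256) passed, so the direction of Six2, Eya1, Sall1 and Gdnf is not settled. Over all 28 tested genes of the list the summed signal was 54985 and 56387 on the mutant arrays, against 49593 and 52327 on the wild-type arrays. The 2 sums thus differed in direction. A linear sum is weighted to its brightest genes, here above all Cdh11 (mean 9817 in mutant and 7929 in wild-type kidneys). Wnt9b of this list is also in the ureteric bud list. Wt1 (log2 difference -0.46, not past the threshold) is also in the renal vesicle list and enters the medians of both. Which cells gave these signals was not tested.

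**Figure D3:**
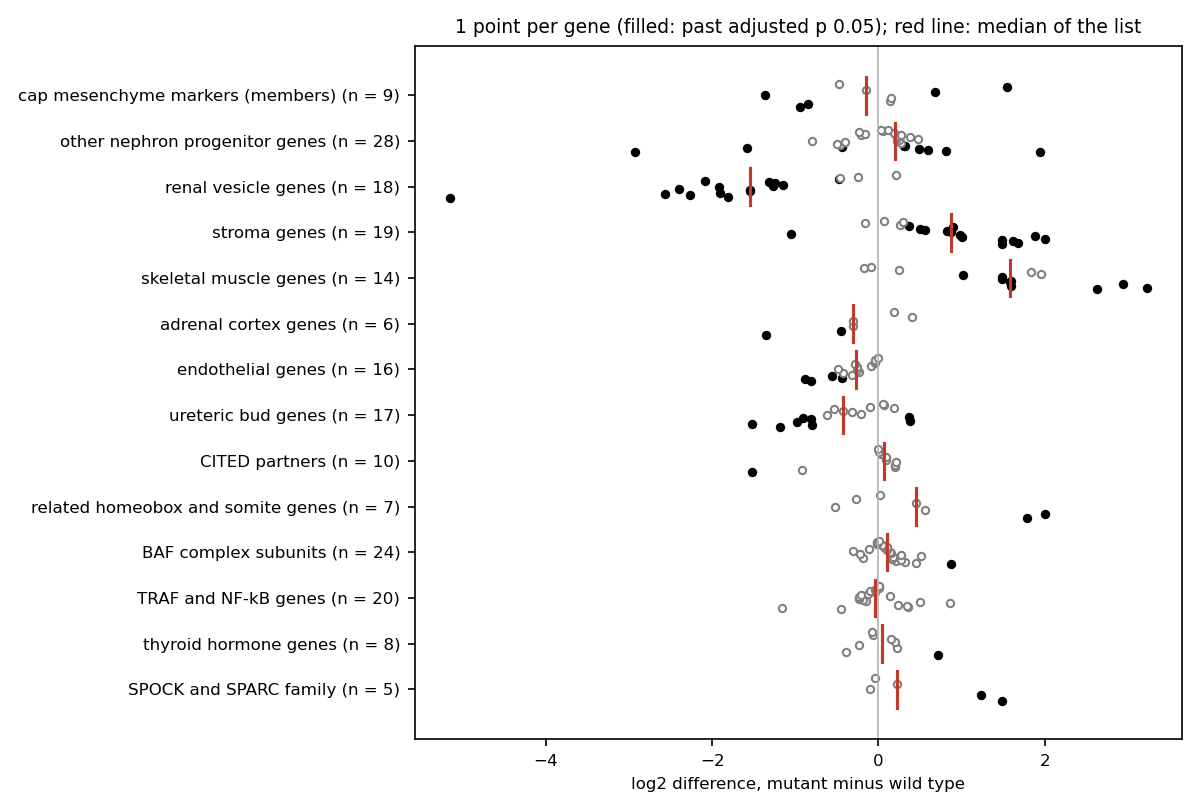
Log2 difference, mutant minus wild type (x axis), of each tested gene of the 9 markers and of 13 other lists, 1 point per gene. Filled points passed limma at an adjusted p of 0.05, and red lines are medians. Wnt4 itself is among the renal vesicle genes. The cap mesenchyme markers straddle 0 with a median of -0.15, the renal vesicle genes lie mostly below 0 with a median of -1.55, and the stroma and skeletal muscle genes lie mostly above 0 with medians of 0.87 and 1.59.

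Markers of other cells moved alongside the members. Together with Uncx, Cited1 and Cited2, 15 of 18 tested renal vesicle genes were lower and 0 higher, with a median log2 difference of -1.55. Wnt4 itself, the mutated gene already used as the check of the labels, is 1 of the 15 and enters the median. The 3 with the smallest p were Osr2, Jag1 and Dkk1. Of the 15 calls, 2 came from genes with mutant means under 94.2, Osr2 (13.8) and Bmp2 (57.0). These 2 entered the test only through the wild-type arrays. The summed signal of the vesicle markers Lhx1, Jag1, Dll1 and Dkk1 was 1729 and 1713 on the mutant arrays, against 6958 and 7273 on the wild-type arrays. Of 17 ureteric bud genes, 6 were lower and 2 higher (median -0.42), led by Spry1 (2.27-fold), Calb1 (1.73-fold) and Tfap2b (2.87-fold), all lower. The 2 higher were Krt18 (1.30-fold) and Krt8 (1.29-fold). The other 9 did not pass, among them the defining markers Ret and Wnt11. Of 16 endothelial genes, 4 were lower and 0 higher (median -0.27), led by Plvap (1.76-fold), Cldn5 (1.84-fold) and Emcn (1.35-fold), all lower. The other 12 did not pass, among them the defining markers Pecam1, Cdh5 and Kdr. The summed signal of Pecam1, Cdh5 and Kdr was 2439 and 2532 on the mutant arrays, against 2598 and 2741 on the wild-type arrays. The Emcn call was lost without either mutant array (adjusted p = 0.195 and 0.0732). The part of these other cells in the lower signals of Uncx, Cited1 and Cited2 was not tested.

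Cited2 is also a gene of the adrenal cortex, a gland that lies against the kidney. Of 6 tested adrenal genes, Mc2r and Scarb1 (1.37-fold) were lower and 0 higher, with a median log2 difference of -0.31. Mc2r entered the test only through the wild-type arrays, since its mutant mean was 64.5, under the filter's 94.2. The Mc2r call was lost without mutant replicate 2 (limma adjusted p = 0.0892), and that of Scarb1 without mutant replicate 1 (0.0946) and without mutant replicate 2 (0.222). The summed signal of the defining markers Nr5a1, Star and Cyp11a1 was 386 and 401 on the mutant arrays, against 484 and 471 on the wild-type arrays. Nr5a1 was too dim to be tested, and Star (log2 difference -0.31) and Cyp11a1 (0.19) did not pass. Their part in the result for Cited2 was not tested. Among 10 tested partners and relatives of the CITED proteins, Tfap2b was lower, 0 were higher, and the median log2 difference was 0.06. The third family member, Cited4, was at -0.91 and did not pass (adjusted p = 0.0863).

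With Crym, and with Traf1 at the 1 probe set whose call has little weight, 14 of 19 stroma genes were higher and 1 lower, with a median of 0.87. The 3 with the smallest p were Pdgfra (2.80-fold), Ntn1 (3.21-fold) and Foxd1 (3.08-fold), all higher. The 1 lower stroma gene was Ecm1 (2.08-fold, limma adjusted p = 0.000522). The other 4 did not pass, with Rarb, Col1a1 and Col3a1 above 0 and Tcf21 below 0. The summed signal of Foxd1, Pdgfra and Tbx18 was 15167 and 15000.4 on the mutant arrays, against 4764 and 5186 on the wild-type arrays. Of 14 tested skeletal muscle genes, 9 were higher and 0 lower, with a median of 1.59. The other 5 did not pass, with Tnnc2, Acta1 and Ttn above 0 and Ckm (log2 difference -0.17) and Des (-0.09) below 0. The summed signal of Myog, Myod1, Myl1 and Actc1 was 6158 and 5857 on the mutant arrays, against 1116 and 791 on the wild-type arrays. These 4 had the smallest limma p of the list, and Actc1 alone gave 4263 and 3890 of the mutant sums. Of 7 tested genes of the related homeobox and somite list, Prrx1 (3.45-fold) and Tbx18 (4.00-fold) were higher and 0 lower, with a median of 0.45. Of the muscle calls, 2 came from genes with wild-type means under 94.2, Myog and Myl1. Whether stromal or muscle cells contributed to the signals of Traf1, Crym, Meox1 or Meox2 was not tested.

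Each member was also set beside the 187 other listed genes by the distance between log2 values centred on the 4 arrays, a description in which close profiles follow easily from so few arrays. The gene nearest to both Cited1 and Cited2 was the endothelial gene Cldn5, at 0.13 and 0.067 log2 units. Nearest to Uncx was Npy (0.093), to Crym Meis2 (0.31) and to Traf1 the muscle troponin gene Tnni1 (0.28). Traf1 was taken at 1423602_at, with the limit on its wild-type level. Nearest to Meox1 was Bcl7c (0.057), to Meox2 Ttn (0.18), to Spock2 Smarcd1 (0.21) and to Dpf3 Smarcb1 (0.083). Six2 was the second nearest to Dpf3, at 0.12.

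**Figure D4:**
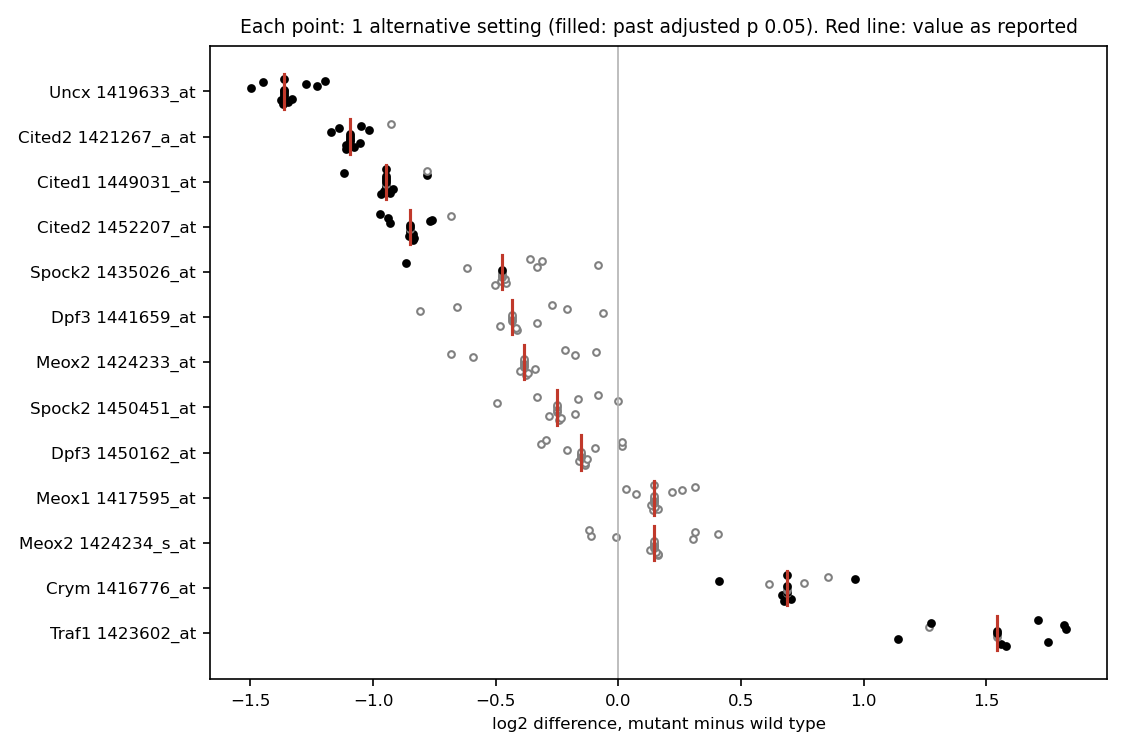
Log2 difference, mutant minus wild type (x axis), of the 13 tested probe sets under each alternative setting (points, filled where the limma adjusted p was below 0.05) with the value as reported (red line). Uncx ranged from -1.50 to -1.20 and was filled throughout, Crym ranged from 0.41 to 0.96, and Spock2 at 1435026_at ranged from -0.87 to -0.08.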

How the data were processed

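The authors deposited a linear signal intensity for each probe set on each array. Per the labels, total RNA of pooled whole kidneys was amplified in 1 round, labelled with biotin and hybridised to Affymetrix Mouse430_2 arrays. GCOS is named in the submitters' processing notes. The summary algorithm is not given in the sources used here. The mean after trimming 2% from each end was 500.002 on every array, so arrays were scaled alike before deposit. The median signal ranged from 138 to 159.

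Signals were taken as log2(signal + 16), with no further normalization. The 64 control probe sets and the lowest 40% by mean log2 value were left out (27022 tested). Fits used limma 3.58.1 in R 4.3.3 (lmFit, eBayes with an intensity trend), two-sided, with Benjamini-Hochberg adjustment over all tested probe sets, and were tested on simulated data. Printed folds are on the log2(signal + 16) scale, which understates changes of dim genes. An exact test of 2 against 2 arrays cannot give p below 0.333. Whether pools of a genotype shared a litter is not in the labels, and p-values therefore cover only the variation from pool to pool. The number of arrays limits the precision. Genes were named through the platform annotation, updated by gene identifier (RefSeq, GRCm38.p6).

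All members were named. From each list, genes past the threshold with the smallest p were named, up to 3. Other genes were named after their values were seen. Members and lists were chosen with earlier results of these data known. Alternatives were quantile normalization, median centring, pseudocounts of 1 and 64, no filter or a 60% filter, eBayes without the trend or robust, a replicate block, gene means over probe sets, leaving out _x_at and _s_at probe sets, leaving out each array, and values relative to Six2.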

Additional observations from a re-analysis of the deposited data

How the results depend on the processing

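Of the values of the 13 tested probe sets under the alternatives, 170 kept their direction where called and their side of the threshold, 14 lost a call, 2 gained one and none of the called ones changed sign. Without the intensity trend 858 of all probe sets passed, against 2920, and of the members 2 probe sets and 1 gene (Uncx). Without a filter 3 member genes passed. Relative to Six2, a setting chosen after seeing the data, 2 member probe sets passed, and over all probe sets 313 were lower and 607 higher, against 1457 lower and 1463 higher. When 1 array was left out, 1572 to 4008 probe sets passed, of the members 4 to 7 probe sets and 3 to 6 genes. The lowest counts came without mutant replicate 2, where Crym and Traf1 were lost, and 1611 probe sets passed without mutant replicate 1. With 1 array of a group left out, the spread of each probe set came from the other group, and the lone array was assumed to vary like it. With the replicate block 2913 probe sets passed, and 7 member probe sets, the added one being Spock2 at 1435026_at (adjusted p = 0.0487). The labels do not say that the numbers pair arrays, and deviations of same-numbered arrays correlated at -0.017 across probe sets. With log2 values averaged over a gene's probe sets, 4 member genes passed and Traf1 fell below the filter. Of the genes named for the smallest p of their list, Osr1, Mc2r, Scarb1, Cldn5, Emcn, Smarca2 and Thra did not pass without the trend. Scarb1 and Emcn did not pass with arrays centred on medians (limma adjusted p = 0.144 and 0.135). Mc2r and Scarb1 did not pass without a filter (0.0907 and 0.0575). Relative to Six2, Osr1, Mc2r, Scarb1, Plvap, Cldn5, Emcn, Calb1 and Thra did not pass. Values near 94.2, the lowest mean signal kept, limit what can be said of Traf1, of Mc2r and of the dimmer probe sets of Dpf3 and Spock2.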
